A study of Mus musculus with 6 samples.

Results

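The transcripts described here are those of cholesterol synthesis and sterol regulation in the fiber cells of the mouse lens. The members were named by gene symbol, and 29 of the 33 listed genes had a probe, out of 16504 named genes measured. Acat2, Scap, Nr1h2 and Soat1 had none among the annotated probes and were not analysed here. The cells came from lenses of the GFP-expressing transgenic strain TgN(GFPU)5Nagy, with no treatment stated, and belonged to 2 groups. One was of mature fibers and the other of elongating fibers, both cut by laser capture from 5 µm paraffin sections, and the border of the lens syncytium was located by the abrupt change in the GFP pattern. For lens249 and lens250 the labels add postnatal day 5, pooled littermates and a minimum of 200 cells, and for the remaining arrays no age is stated. Both populations were hybridised together on each of 6 two-colour arrays. Channel 1 carried mature fibers on lens249, lens487 and lens493, and it carried elongating fibers on lens250, lens488 and lens455.

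Cholesterol is built from acetyl-CoA through mevalonate, isopentenyl diphosphate and squalene, and the ring formed from squalene is then trimmed to cholesterol. SREBP transcription factors switch on these enzymes when sterols are low, SCAP escorts them out of the endoplasmic reticulum, and INSIG proteins hold them back when sterols are high. LXR receptors act in the opposite state and raise transcripts of sterol export. Fiber membranes of the lens are known for a very high cholesterol content, the tissue has no blood vessels and makes its own cholesterol, and drugs that block late steps of the synthesis cause cataract in laboratory animals.

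Each value below is a log ratio of the 2 fiber populations on an array, in the deposited log units, whose base is not stated. The sign was turned on lens250, lens488 and lens455, so that all arrays run the same way. The numerator is not stated either, which leaves the direction open. A negative value means less transcript in mature than in elongating fibers if the ratio is channel 1 over channel 2, and more if it is the reverse. The negative side is the side of N-cadherin (Cdh2, -1.78 ± 0.54, SD, n = 6 arrays) and the positive side that of the lysosomal nuclease Dnase2b (1.81 ± 0.30). Ratios hold no transcript level, so the label of the cells could not be checked against the abundance of lens markers, and levels of different genes were not compared. In bulk samples such as these, fewer cells of a type and less RNA per cell cannot be told apart.

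The arrays were set in 3 pairs, each with both orientations: lens249 with lens250 and lens487 with lens488, whose title numbers follow each other, and lens493 with lens455, the arrays that remain. Across the 29 sterol genes, r between the 2 arrays of a pair was 0.46, 0.87 and 0.66, against 0.14 to 0.53 for the other combinations. These are correlations across genes that share each array's RNA, given as a description. The labels do not say whether a pair was a dye swap of the same RNA. Counts, intervals and p-values below treat the 6 arrays as separate unless stated. Results with each pair averaged, which leaves 3 values, are given for the genes past the threshold and for the counts over all sterol genes and all features. In limma over the 6 arrays, 339 of 19624 features (1.73%) passed an adjusted p of 0.05, and with the pairs averaged 0 did (2395, or 12.2%, at an unadjusted p under 0.05).

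In limma with the 6 arrays taken as separate, 3 genes passed the threshold: 2 early enzymes of the pathway and 1 regulator. None of them passed with the pairs averaged. Idi1, the isomerase that makes dimethylallyl diphosphate, lay at -1.19 ± 0.33 (SD, n = 6). Hmgcs1, the synthase that makes HMG-CoA for the mevalonate pathway, lay at -1.06 ± 0.41. Insig1, the sterol-dependent anchor that retains the SREBP and SCAP complex, lay at -0.82 ± 0.35. All were on the side of Cdh2.

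Idi1 had -1.40 on lens249 and -1.30 on lens250, -1.42 on lens487 and -1.35 on lens488, and -1.11 on lens493 and -0.54 on lens455. The first 4 of these values lay close together, and lens455 gave the smallest difference. Hmgcs1 had -0.76 on lens249 and -1.04 on lens250, -0.67 on lens487 and -0.78 on lens488, and -1.39 on lens493 and -1.70 on lens455. The largest differences of Hmgcs1 thus came from the pair in which Idi1 had its smallest. Insig1 had -0.40 on lens249 and -0.41 on lens250, -0.90 on lens487 and -1.03 on lens488, and -1.30 on lens493 and -0.86 on lens455. No array had a value above 0 for any of these 3 genes.

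In limma the adjusted p was 0.0108 for Idi1, 0.0239 for Hmgcs1 and 0.0365 for Insig1, two-sided and adjusted over all features. On a log2 reading of the values the Idi1 difference was 2.28-fold, and on a log10 reading it was 15.4-fold. That of Hmgcs1 was 2.08-fold or 11.4-fold, and that of Insig1 1.76-fold or 6.58-fold. With the pairs as a random block in limma all 3 passed (adjusted p 0.0137 for Idi1, 0.0285 for Hmgcs1 and 0.0433 for Insig1). That fit used a single correlation within pairs, 0.13, for all genes. The pair means ranged over 0.819 for Hmgcs1, 0.673 for Insig1 and 0.559 for Idi1. The largest differences within a pair were 0.305, 0.435 and 0.569. With the pairs averaged none passed, at limma adjusted p of 0.247 for Idi1, 0.278 for Hmgcs1 and 0.289 for Insig1. Leaving out 1 array at a time, Idi1 passed in 4 of 6 fits (limma adjusted p 0.0238 to 0.0649), Insig1 in 1 of 6 (0.0468 to 0.139) and Hmgcs1 in 0 of 6 (0.0594 to 0.0838). The Idi1 call was lost without lens487 or without lens488, and the Insig1 call held only without lens249.

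These were 3 of 29 measured sterol genes on the negative side, where 1.36% of all features passed, and 0 of 29 on the positive side, where 0.372% did. At an unadjusted p under 0.05 in limma, 10 of 29 were counted, against 16.2% of all features. All 10 lay on the negative side (8.94% of all features), and 0 on the positive side (7.28%). With the pairs averaged, 8 of 29 were under an unadjusted p of 0.05 in limma, all 8 negative, against 12.2% of all features on either side. Of the 29, 7 (Hmgcs1, Pmvk, Idi1, Sqle, Tm7sf2, Insig1 and Srebf1) were below 0 on all 6 arrays, against 5.65% of all features, and 0 were above 0 on all 6, against 3.52%. The list was nonetheless divided: 15 means lay below 0 and 14 above, where 49% of all features lay below 0. The median of the 29 means was -0.053, beside 0.0030 over all features, and the means ranged from -1.19 to 0.33.

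**Figure D1:**
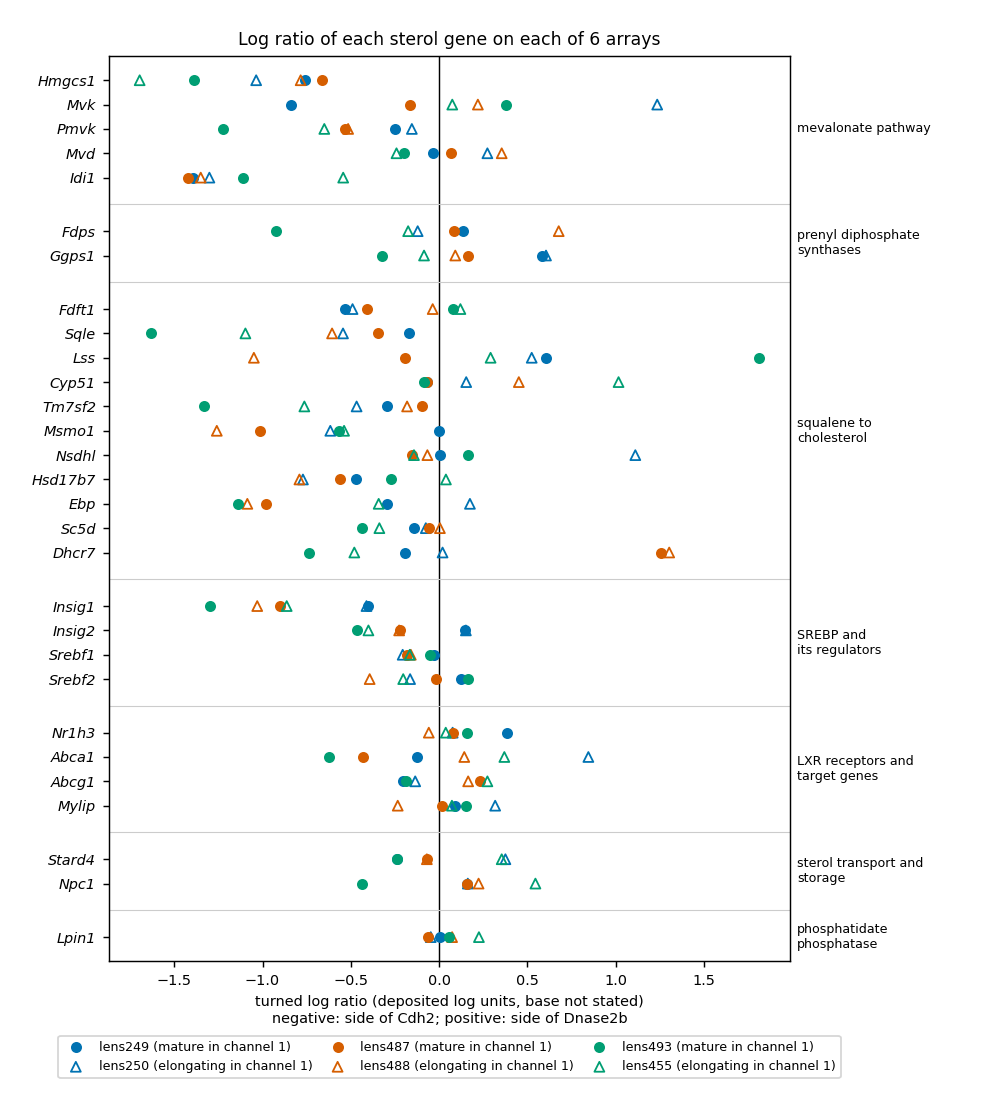
Turned log ratio (x axis, deposited log units of unstated base) of 29 sterol genes (rows, grouped by role) on 6 arrays; filled circles are arrays with mature fibers in channel 1, open triangles arrays with elongating fibers in channel 1, and each colour is a pair of arrays. Idi1, Hmgcs1 and Insig1 lie left of 0 on every array, Dhcr7 lies near 1.3 in the pair lens487 and lens488 and at 0.020 or below on the other arrays, and circles and triangles of Abca1 lie on opposite sides of 0.

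The rest of the mevalonate pathway did not move as a block. Pmvk, the phosphomevalonate kinase that acts before decarboxylation, was below 0 on all 6 arrays, from -0.15 on lens250 to -1.22 on lens493, with a mean of -0.55 ± 0.38 (limma adjusted p = 0.109, not past the threshold). Mvk, mevalonate kinase, one step earlier, had -0.84 on lens249 and 1.24 on lens250, and its mean of 0.15 ± 0.68 has a 95% interval of -0.32 to 0.62. Mvd, the decarboxylase that yields isopentenyl diphosphate, had 0.037 ± 0.24 (95% interval -0.18 to 0.26). Of the 5 measured genes of this stretch 2 passed, both negative, and 3 did not. Over all features 1.36% passed on that side in limma. Neither synthase of the longer prenyl chains passed. Fdps, which makes farnesyl diphosphate for sterols and prenylation, had -0.053 ± 0.52 (limma adjusted p = 0.92), and Ggps1, which extends it to geranylgeranyl diphosphate, had 0.17 ± 0.37 (limma adjusted p = 0.608). At an unadjusted p under 0.05 in limma, 0 of these 2 and 3 of the 5 mevalonate pathway genes were counted. All 3 lay on the negative side, where 8.94% of all features were counted. Ggps1 differed by pair, at 0.58 and 0.61 on lens249 and lens250 but at -0.32 and -0.085 on lens493 and lens455.

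Of the 11 enzymes from squalene to cholesterol, 0 passed the adjusted threshold in limma. Under an unadjusted p of 0.05 in limma were 5, all 5 negative, against 8.94% of all features on that side. The largest was Sqle, the epoxidase that oxidises squalene, at -0.73 ± 0.54 (adjusted p = 0.132). Sqle was below 0 on all 6 arrays, with -0.17 on lens249 and -0.54 on lens250, -0.34 on lens487 and -0.61 on lens488, and -1.63 on lens493 and -1.10 on lens455. Msmo1, an oxidase in the removal of methyl groups from the sterol ring, had -0.67 ± 0.44 (adjusted p = 0.0914). Its values were -1.02 and -1.26 in the pair lens487 and lens488 and 0.00 on lens249. Ebp, the sterol isomerase, had -0.61 ± 0.53 (adjusted p = 0.163), Tm7sf2, a sterol reductase, -0.52 ± 0.46 (adjusted p = 0.197), and Hsd17b7, the ketoreductase of the demethylation complex, -0.47 ± 0.32 (adjusted p = 0.125). Leaving out 1 array at a time, Hsd17b7 passed in 1 of 6 fits (limma adjusted p 0.0472 to 0.322). That fit was without lens455 and gave -0.61. With the pairs averaged Hsd17b7 did not pass (limma adjusted p = 0.354). It had 0.039 on lens455 and -0.79 to -0.27 on the other arrays.

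Other enzymes of the same branch had means above or near 0. Lss, the cyclase that forms lanosterol, had the highest mean of the 29 genes, 0.33 ± 0.95, but its values ran from -1.05 on lens488 to 1.81 on lens493. Cyp51, the lanosterol demethylase, had 0.23 ± 0.44 (adjusted p = 0.36), and its sign differed by dye orientation. With mature fibers in channel 1 it had -0.067 on lens249, -0.067 on lens487 and -0.088 on lens493. With elongating fibers in channel 1 it had 0.15 on lens250, 0.45 on lens488 and 1.02 on lens455. The dye effect of -0.31 did not pass in limma (adjusted p = 0.332, unadjusted p = 0.0268). Dhcr7, a reductase at the end of the route to cholesterol, had 1.26 on lens487 and 1.30 on lens488, against -0.19 and 0.020 on lens249 and lens250 and -0.74 and -0.48 on lens493 and lens455. One pair of arrays thus set the sign of the Dhcr7 mean, 0.20 ± 0.88, and that mean was -0.092 without lens487 and -0.060 without lens488. Nsdhl, the demethylation dehydrogenase, was averaged from 2 probes and had 0.15 ± 0.48, with 1.11 on lens250 and -0.15 to 0.17 on the other arrays. Fdft1, squalene synthase, had -0.21 ± 0.30 and Sc5d, the sterol desaturase, -0.17 ± 0.17. Their 95% intervals, -0.48 to 0.055 and -0.36 to 0.014, reach just past 0. In all, 7 of these 11 means lay below 0 and 4 above, where 49% of all features lay below 0.

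**Figure D2:**
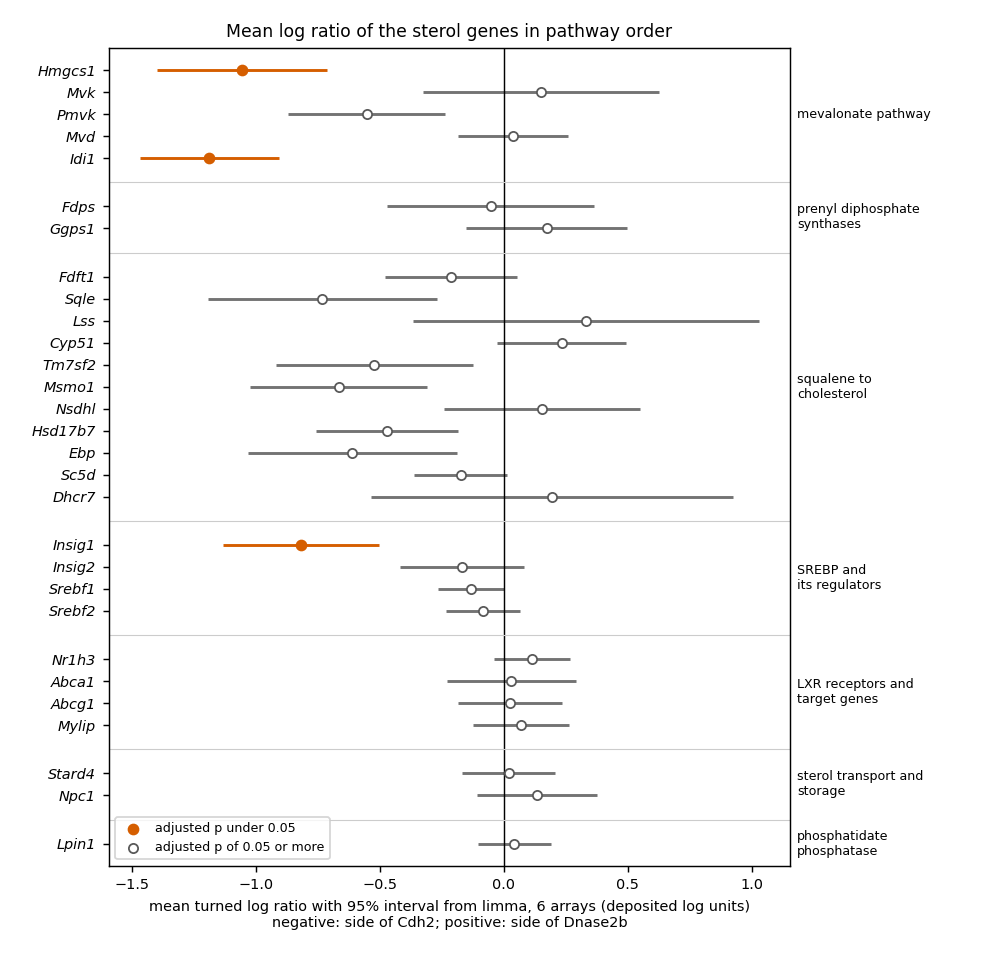
Mean turned log ratio of each sterol gene over 6 arrays with its 95% interval from limma (x axis, deposited log units), in pathway order from Hmgcs1 downward; filled points had an adjusted p under 0.05 and open points did not. Idi1, Hmgcs1 and Insig1 are the 3 filled points, and the intervals of Pmvk, Sqle, Tm7sf2, Msmo1, Hsd17b7 and Ebp also lie below 0, that of Srebf1 ends at 0, and those of the LXR genes all include 0.

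Among SREBP and its regulators, Insig1 was the single gene past the threshold, 1 of 4 measured, and all 4 means lay below 0. Over all features 1.36% passed on the negative side in limma, and 49% of the means lay below 0. Insig2, the paralogue of Insig1, had 0.15 on both lens249 and lens250, -0.22 on lens487 and -0.23 on lens488, and -0.47 on lens493 and -0.40 on lens455. Its arrays agreed closely within pairs and differed between them, and the mean was -0.17 ± 0.27 (limma adjusted p = 0.503). Srebf2, the SREBP gene best known for sterol synthesis, had 0.13 on lens249, -0.020 on lens487 and 0.16 on lens493 with mature fibers in channel 1. With elongating fibers in channel 1 it had -0.16 on lens250, -0.39 on lens488 and -0.20 on lens455. The mean of -0.082 ± 0.21 did not pass (limma adjusted p = 0.592), and the 95% interval of -0.23 to 0.067 leaves out differences as large as that of Insig1. Srebf1, the SREBP gene best known for fatty acid synthesis and itself a target of LXR, was below 0 on all 6 arrays but small, with -0.029 on lens249 and -0.21 on lens250, -0.18 on lens487 and -0.16 on lens488, and -0.054 on lens493 and -0.17 on lens455. Its mean was -0.13 ± 0.073 (limma adjusted p = 0.308), and with an interval that ends at 0 it is the last of the 10 genes counted under an unadjusted p of 0.05.

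Of LXR and its target genes 0 of 4 passed in limma. At an unadjusted p under 0.05, 0 were counted, against 16.2% of all features. All 4 means lay above 0, where 49% of all features lay below 0. Nr1h3, which encodes LXR alpha, had 0.38 on lens249 and 0.077 on lens250, 0.080 on lens487 and -0.058 on lens488, and 0.16 on lens493 and 0.038 on lens455, with a 95% interval of -0.041 to 0.27. Abcg1, a sterol exporter, had -0.21 on lens249 and -0.14 on lens250, 0.23 on lens487 and 0.17 on lens488, and -0.19 on lens493 and 0.27 on lens455 (95% interval -0.19 to 0.23). Mylip, the ubiquitin ligase that removes the LDL receptor, had 0.088 on lens249 and 0.32 on lens250, 0.019 on lens487 and -0.23 on lens488, and 0.15 on lens493 and 0.073 on lens455 (95% interval -0.12 to 0.26). Abca1, the exporter that loads cholesterol onto apolipoproteins, followed the dye orientation. It had -0.13, -0.43 and -0.62 on lens249, lens487 and lens493, with mature fibers in channel 1, and 0.85, 0.14 and 0.37 on lens250, lens488 and lens455, with elongating fibers in channel 1. The mean of 0.030 (95% interval -0.23 to 0.29) therefore averages opposite values, and the dye effect of -0.42 did not pass in limma (adjusted p = 0.272, unadjusted p = 0.00635).

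No dye effect passed the adjusted threshold in limma for any of the 29 genes, or for any feature (0%), although 12.6% of all features and 4 of the 29 (Abca1, Cyp51, Srebf2 and Stard4) were under an unadjusted p of 0.05. The 3 genes past the threshold had dye effects of -0.12 (Idi1), 0.12 (Hmgcs1) and -0.050 (Insig1), small beside their differences. Their means were -1.31 and -1.06 for Idi1, -0.94 and -1.17 for Hmgcs1, and -0.87 and -0.77 for Insig1 with mature and with elongating fibers in channel 1.

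Of sterol transport and storage, Stard4, a cytosolic carrier of cholesterol, had 0.019 ± 0.28 and Npc1, which moves cholesterol out of the lysosome, 0.14 ± 0.32. Both lay within their spread (limma adjusted p = 0.938 and 0.586), with 0 of 2 under an unadjusted p of 0.05. Lpin1, a phosphatidate phosphatase of lipid synthesis that SREBP can activate, had 0.042 ± 0.11 and a 95% interval of -0.11 to 0.19. Over the 18 measured synthesis enzymes the median of the means was -0.19, and 2 passed. Over the other 11 members it was 0.024, and 1, Insig1, passed. Over all features the median was 0.0030, and 1.73% passed in limma. The difference between these medians was not tested.

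**Figure D3:**
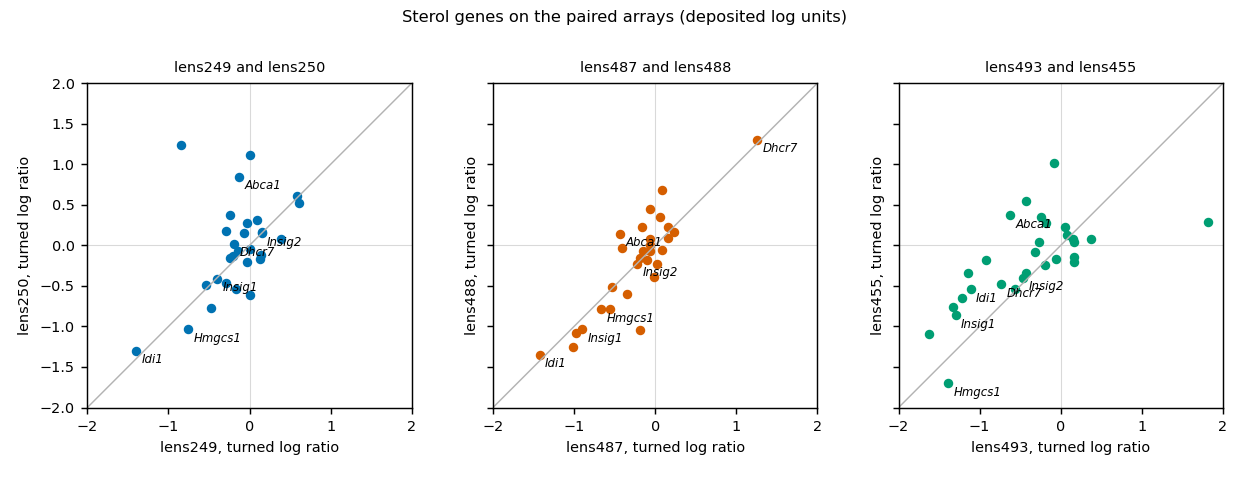
Turned log ratios of the 29 sterol genes on the 2 arrays of each pair (x axis, mature fibers in channel 1; y axis, elongating fibers in channel 1; deposited log units; grey line, equal values). Points lie closest to the line for lens487 and lens488 (r = 0.87), and Dhcr7 is at the upper right in that pair but below 0 on both axes for lens493 and lens455.

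The 3 genes past the threshold are shown with the 250 bases before their annotated start, because SREBP is known to act on such promoters together with NF-Y and Sp1. The sequences are from RefSeq, build GRCm38.p6, read 5′ to 3′ along the gene's strand. Capitals mark matches on either strand to TCACNCCAC, the sterol element of the LDL receptor type, to CCAAT, the NF-Y box (ATTGG when read from the other strand), and to GGGCGG, the GC box of Sp1 (CCGCCC from the other strand), and no matches overlap in these windows.
Idi1, chr13:8885356-8885605, plus strand: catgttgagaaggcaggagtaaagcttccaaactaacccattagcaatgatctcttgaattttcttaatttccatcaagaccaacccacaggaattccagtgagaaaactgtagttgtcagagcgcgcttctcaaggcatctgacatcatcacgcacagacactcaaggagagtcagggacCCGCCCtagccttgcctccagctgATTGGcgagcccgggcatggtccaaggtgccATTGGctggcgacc
Hmgcs1, chr13:119690101-119690350, plus strand: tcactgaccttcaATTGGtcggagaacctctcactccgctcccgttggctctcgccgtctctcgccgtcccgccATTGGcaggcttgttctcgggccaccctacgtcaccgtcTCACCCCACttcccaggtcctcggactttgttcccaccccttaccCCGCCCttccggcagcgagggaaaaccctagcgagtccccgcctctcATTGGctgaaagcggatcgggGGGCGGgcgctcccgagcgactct
Insig1, chr5:28071162-28071411, plus strand: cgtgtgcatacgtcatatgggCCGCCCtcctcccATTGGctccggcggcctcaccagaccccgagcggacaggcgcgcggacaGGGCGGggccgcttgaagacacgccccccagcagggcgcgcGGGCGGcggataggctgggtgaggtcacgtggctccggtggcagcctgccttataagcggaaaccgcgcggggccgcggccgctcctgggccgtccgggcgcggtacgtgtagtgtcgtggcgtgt
The sterol element was found in Hmgcs1, at bases -137 to -129 from the start, between NF-Y boxes. Only exact matches within the 250 bases were sought, so elements with other letters or in other places would be missed. Windows were available for 23 of the 29 measured genes, and for Fdps, Fdft1, Sqle, Abcg1, Stard4 and Npc1 none was used. Counting a gene once if any of its windows held the motif, TCACNCCAC was in 1 of 23, against 1.22% of 27025 genes, and the palindrome TCACGTGA was in 0 of 23, against 0.907%. CCAAT was in 20 of 23, against 37.5% of genes, and GGGCGG in 19 of 23, against 35.4%. The 27025 genes are all those with a window, not only the genes measured here. Whether the boxes are more frequent in the sterol genes than in comparable genes was not tested. Windows of genes with no called difference, such as Mvk with 5 NF-Y boxes and Dhcr7 with 2, held these boxes as well.

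The other genes around the pathway were counted from lists by function. Over all features 1.73% passed the adjusted threshold in limma. Of 14 fatty acid genes of the SREBP pathway 1 passed in limma, Elovl5, an elongase of polyunsaturated fatty acids, at -1.08 ± 0.30 (adjusted p = 0.00807). Elovl5 had -1.15 on lens249 and -0.95 on lens250, -1.45 on lens487 and -1.15 on lens488, and -1.24 on lens493 and -0.57 on lens455. It lay on the side of Idi1 on every array, and like Idi1 it was closest to 0 on lens455. Elovl5 passed in 6 of 6 fits without 1 array (limma adjusted p 0.0238 to 0.0494), and with the pairs averaged it did not pass (limma adjusted p = 0.247). Elovl6, which elongates saturated chains, had -1.11 ± 0.67 (adjusted p = 0.0779) and Scd2, a desaturase, -0.81 ± 0.48 (adjusted p = 0.0802), and neither passed. Elovl6 had 0.026 on lens249 and -0.70 on lens250, and -1.72 to -1.28 on the other arrays. Fasn, the fatty acid synthase, had -0.38 ± 0.25 (limma adjusted p = 0.119), with 0.016 on lens249 and -0.66 to -0.23 on the other arrays. These 4 of 14 genes were under an unadjusted p of 0.05 in limma, all negative, against 8.94% of all features on that side. The median of the list was -0.012.

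Of 27 other sterol genes (receptors, lysosomal and oxysterol enzymes, sterol carriers and redox partners) 0 passed in limma. Under an unadjusted p of 0.05 in limma were 3 negative and 1 positive. These counts lay near the shares over all features, 8.94% negative and 7.28% positive. The lowest p were those of the lipoprotein receptor Vldlr (-0.62 ± 0.34, adjusted p = 0.0683), the heme-binding protein Pgrmc2 (-0.56 ± 0.42, adjusted p = 0.125) and the HDL receptor Scarb1 (-0.38 ± 0.24, adjusted p = 0.125). The median was -0.093, with 21 of 27 means below 0, against 49% of all features. Of 12 genes that build prenyl chains or attach them to proteins 0 passed in limma. Under an unadjusted p of 0.05 in limma were 1 negative and 1 positive, again near the shares over all features. Rce1, the protease of prenylated proteins, had 0.26 ± 0.34 (adjusted p = 0.157), the transferase subunit Fnta -0.23 ± 0.29 (adjusted p = 0.306) and Coq2, of ubiquinone synthesis, -0.32 ± 0.39 (adjusted p = 0.333). Their median was 0.051.

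Markers of neighbouring cells were set beside these values. Over all features 1.73% passed the adjusted threshold in limma. Of 11 lens epithelium markers 1 passed in limma, the basement membrane collagen Col4a1 (-0.95 ± 0.38, adjusted p = 0.0303), on the side of Idi1, Hmgcs1 and Insig1. Its values were -0.40 on lens249 and -0.62 on lens250, -1.10 on lens487 and -0.92 on lens488, and -1.28 on lens493 and -1.37 on lens455. At an unadjusted p under 0.05 in limma 4 of the 11 were counted, 3 negative and 1 positive. Over all features the shares were 8.94% negative and 7.28% positive. The matrix protein Sparc had -0.53 ± 0.62 (limma adjusted p = 0.0619), with -1.05 on lens249 and 0.40 on lens250, -0.96 on lens487 and -0.071 on lens488, and -1.13 on lens493 and -0.38 on lens455. The collagen Col4a2 had -0.58 ± 0.51 (limma adjusted p = 0.19), with 0.061 on lens249 and -1.32 to -0.28 on the other arrays. Both had all 3 pair means below 0, on the side of Idi1, Hmgcs1 and Insig1. By orientation, however, Sparc had means of -1.05 with mature and -0.015 with elongating fibers in channel 1. Its dye effect of -0.52 did not pass in limma (adjusted p = 0.272, unadjusted p = 0.00158). The laminin chain Lama1 lay on the other side at 0.23 ± 0.20 (limma adjusted p = 0.256). The median of the epithelium list was 0.027, the sum of its log ratios on an array ranged from -3.28 to 0.17, and its defining gene Foxe3 had 0.11 ± 0.11. Of 7 macrophage and leukocyte markers 1 passed, Laptm5 (0.35 ± 0.21, adjusted p = 0.0387), on the other side, with sums from -0.23 to 1.16. Of 6 blood and vessel markers (sums -0.63 to 0.73) and 8 retina and pigment cell markers (sums 0.19 to 1.30) 0 passed in limma. Under an unadjusted p of 0.05 in limma were 0 and 2, against 16.2% of all features. Both of the 2 lay on the positive side, where 7.28% of all features were counted. Of the 8 retina and pigment cell means 6 lay above 0 and 2 below, where 49% of all features lay below 0. Leaving out 1 array at a time, Col4a1 passed in 1 of 6 fits and Laptm5 in 0 of 6, and with the pairs averaged neither passed (limma adjusted p = 0.284 for Col4a1 and 0.281 for Laptm5). The part of such cells in the sterol gene values was not tested.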

How the data were processed

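RNA of mature and elongating fibers was compared on 6 two-colour arrays. The authors deposited 1 log ratio per probe and array, treated here as a score: its base, numerator, scanner, background correction and normalization were not given in the sources that were used. There were 22575 probes with 0 missing values; array medians lay between -0.006 and 0.025. No spot intensities were used, so the number of arrays limits the precision. Probes were named from the platform annotation (18218 with 1 symbol, 16 with several, 4341 unlisted), 18175 matching the RefSeq table of GRCm38.p6 by gene ID. Of identical rows 1 was kept, except that 1032 unlisted probes in 10 sets of 49 or more equal rows were dropped. Arrays were centred on their medians, lens250, lens488 and lens455 were turned, and probes of a gene were averaged, giving 19624 features. The turn rests on the channels in the labels.

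Tests used lmFit and eBayes of limma 3.58.1 (R 4.3.3), two-sided, with terms for the fiber difference and the dye, adjusted over all features by Benjamini-Hochberg at 0.05. The code was tested on simulated data. Errors are SDs over 6 turned arrays and include the dye effect. P-values measure the spread between arrays, which may be technical, since the labels do not say which arrays came from separate animals. Deviations from the mean of each orientation, over all features, correlated at 0.19, 0.58 and 0.37 within the 3 pairs. They correlated at -0.36 to -0.053 between other arrays, so the pairs were also averaged. Deviations cancel over the arrays of an orientation, so positive values within pairs force negative values elsewhere, and the contrast is partly arithmetic. The pairing comes from consecutive titles for 2 pairs, from the remaining arrays for the third, and from these correlations; no label states it.

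The members and gene lists were chosen with earlier results of these data known. All members are named. Of the other pathway lists, genes past the threshold and the 3 with the lowest p are named, and of the marker lists those past the threshold; Foxe3, Sparc, Col4a2, Lama1 and Fasn were added after their values were seen. Motifs were searched in the 250 bases before the start. Alternatives were the dye term, centring, scaling, probe summary, feature filter, variance prior, pairing, orientation and leaving out each array. Figures were drawn with matplotlib 3.10.9.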

Additional observations from a re-analysis of the deposited data

Results flagged for a closer look

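For 2 of the 29 sterol genes a single array stood apart from the remaining 5; chance alone marks about 1 gene in 20, or 1.45 of 29. Idi1 had -0.543 on lens455, where the others lay between -1.42 and -1.11. Nsdhl had 1.11 on lens250, where the others lay between -0.152 and 0.166.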

How the results depend on the processing

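Of 29 sterol genes, 16 kept their sign under all 18 alternatives and 13 did not; none of the 31 turned values passed in either fit. The count past the threshold, 3, was 0 with the replicate block by averaging the pairs, 0 with mature fibers in channel 1 only, 0 with elongating fibers in channel 1 only, and 0 to 2 without 1 array. It was 3 with the pairs as a random block and 2 with all probes kept, where Insig1 had a limma adjusted p of 0.0533. Of the 53 other pathway genes, 1 passed; the count was 4 without the dye term, 2 after quantile normalization, 1 to 3 without 1 array, 0 with the pairs averaged and 0 in each orientation alone. Over all features 339 passed, and 16 to 117 did without 1 array (fewest without lens488), 0 with the pairs averaged and 0 in each orientation alone (2609 with mature and 2670 with elongating fibers in channel 1 at an unadjusted p under 0.05 in limma). The median of the sterol genes was -0.182 with mature fibers in channel 1 only, and -0.0916 to 0.0034 without 1 array.

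Signs turned as follows, and the cause was not tested. Scaling gave Abca1 -0.0243 and Stard4 -0.0051, and quantile normalization Fdps 0.0089, Abca1 -0.0078 and Stard4 -0.0067. With mature fibers in channel 1 only, values were -0.2097 for Mvk, -0.0547 for Mvd, -0.074 for Cyp51, 0.0893 for Srebf2, -0.393 for Abca1, -0.0533 for Abcg1, -0.182 for Stard4, -0.0403 for Npc1 and -0.001 for Lpin1. With elongating fibers in channel 1 only, they were 0.1273 for Fdps and -0.0773 for Lss. Without 1 array, Mvk ranged from -0.0311 to 0.3079, Mvd from -0.0191 to 0.1299, Fdps from -0.1907 to 0.1192, Nsdhl from -0.0494 to 0.2644, Dhcr7 from -0.0916 to 0.4074, Abca1 from -0.0682 to 0.1075, Abcg1 from -0.0471 to 0.0831 and Stard4 from -0.0195 to 0.0918. Signal over background was not analysed here.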
